A study of Homo sapiens with 24 samples.

Results

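The 10 genes followed here belong to fibroblast growth factor (FGF) signalling and its feedback, and were measured by RNA-seq of T/C-28a2 cells, an immortalised human chondrocyte line. They were the ligands FGF2 and FGF1, the receptor FGFR1, the Sprouty genes SPRY1, SPRY2 and SPRY4, the related gene SPRED1, the phosphatase gene DUSP6 and the transcription factor genes ETV4 and ETV5. The 10 genes were matched by symbol among 62703 Ensembl gene identifiers counted in each of 24 libraries, and 8 of the 10 passed the filter on low counts. SPRY1 was chosen by its fall in WNK2 null cells under sorbitol, where it was among the largest falls. Its values in that contrast are therefore a description, and no test is given for any of the 10 genes there, nor for SPRY1 in any other comparison that uses the same libraries.

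Chondrocytes live in a matrix whose osmolarity changes with load, and WNK2 is a kinase of the family that senses osmotic change. The study compared WT cells, WT cells given a WNK2 plasmid and WNK2 null cells, each in isotonic and hyperosmotic media, with 4 libraries per group. WT Ctr cells were parental cells kept in isotonic media and WT Sor cells were parental cells kept in 100 mM sorbitol for 7 days. WNK2 trans Ctr and WNK2 trans Sor cells were parental cells transfected with a WNK2 expression plasmid for 48 hours and then kept for 7 days without or with 100 mM sorbitol; the control groups were not transfected, so no group carried an empty plasmid. WNK2- Ctr and WNK2- Sor cells carried a CRISPR deletion of exon 2 of WNK2 and were kept for 7 days in isotonic media or in 100 mM sorbitol. The WNK2- cells were grown from a single clone, so the deletion and other differences of that clone cannot be told apart. The study's methods call the 4 libraries of a group biological replicates, while the labels do not say whether they were separate cultures. The p-values measure the spread between these libraries. In bulk RNA, fewer cells that express a gene and less RNA of it per cell cannot be told apart.

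FGFs bind receptor tyrosine kinases with heparan sulfate as cofactor, and the receptors signal through RAS, RAF, MEK and ERK. ERK signalling induces its own inhibitors: Sprouty and SPRED proteins dampen the RAS to ERK step, DUSP6 removes phosphate from ERK in the cytoplasm, and the ETV factors carry the signal to target genes. In cartilage, FGF2 is held in the matrix around the chondrocyte and is released by load and injury, FGFR1 is linked to catabolic responses and FGFR3 to anabolic ones.

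Total counts per library ran from 14153002 to 25664619, and values are normalised CPM, the read counts scaled to a common library size with TMM factors, as mean ± SD with n = 4 unless stated. The labels were checked against WNK2 itself. WNK2 had 169, 78.5, 116 and 186 CPM in the libraries labelled WT Ctr, but only 16.1, 12.9, 9.98 and 15.8 in those labelled WNK2 trans Ctr. The WT Sor libraries had 15.4 to 17.4 CPM and the WNK2 trans Sor libraries 122 to 207. In the clone WNK2 ran from 16.9 to 22.8 CPM over both media. The study's supplement lists similar WNK2 counts in the 4 parental groups, without a significant effect of sorbitol or transfection, and fewer in WNK2- cells. Beside that list, WT Sor and WNK2 trans Ctr were both low here, while WT Ctr was not. Between the 2 isotonic parental groups WNK2 goes against the labels WT Ctr and WNK2 trans Ctr. Which labels, if any, are wrong cannot be told from these values. Each direction drawn from WT Ctr, WT Sor or WNK2 trans Ctr is one between libraries so labelled. For this reason WNK2- Ctr and WT Sor were also compared with WNK2 trans Ctr. WT Ctr replicate 2 stood apart, with 17619 genes holding a count against up to 20120 in the other libraries of its group. The chondrocyte label was checked on 14 marker genes, of which SOX9 and CHAD were at 0 in every library. Their summed level was 103 to 159 CPM in the 4 groups of parental cells and 27.3 to 33.6 CPM in the 2 groups of WNK2- cells. Much of the sum was HAPLN1, a cartilage link protein gene, with a mean of 57.2 CPM over the libraries beside 3.45 for ACAN and 3.29 for COL2A1, so the sum does not stand for the list. In WNK2 trans Sor the sum was 112 to 159 CPM, although 8 of the 10 tested markers were lower there than in WNK2 trans Ctr. The 6 fibroblast markers, read the same way, summed to 925 to 6436 CPM. Most of this sum was COL1A1, with a mean of 2559 CPM over the libraries beside 430 for COL3A1, 0.444 for DCN and 0.321 for COL1A2. It too does not stand for its list.

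SPRY1 and SPRY2 are shown first by sequence, since these were the Sprouty genes that fell in WNK2- Ctr cells and both moved with the groups. Each line is the 250 bases before a start site of the gene in RefSeq on GRCh38.p14, read 5′ to 3′ on the gene's strand, with matches to the GC box GGGCGG on either strand in capitals. The windows lie at chr4:123396545-123396794 (plus strand) for SPRY1 and chr13:80341127-80341376 (minus strand) for SPRY2, and neither overlaps an exon of GENCODE 29.
SPRY1: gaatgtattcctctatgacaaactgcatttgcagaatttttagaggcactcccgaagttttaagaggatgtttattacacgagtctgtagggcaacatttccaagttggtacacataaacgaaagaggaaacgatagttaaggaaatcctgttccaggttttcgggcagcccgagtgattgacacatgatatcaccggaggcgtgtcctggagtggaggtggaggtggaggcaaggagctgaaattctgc
SPRY2: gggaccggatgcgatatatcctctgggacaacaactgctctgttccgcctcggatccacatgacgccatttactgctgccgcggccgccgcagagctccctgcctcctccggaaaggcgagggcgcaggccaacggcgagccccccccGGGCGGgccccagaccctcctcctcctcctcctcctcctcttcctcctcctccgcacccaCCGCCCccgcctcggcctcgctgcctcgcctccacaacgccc
The SPRY1 window had 45.6% GC and no match to the GC box, and the SPRY2 window had 70.4% GC and 2 matches. Neither held the ETS letters CCGGAAG, the AP-1 letters TGANTCA or the CRE letters TGACGTCA, each searched on its own on both strands. Of 35116 RefSeq windows of this length, 42.6% held the GC box, 8.52% the ETS letters, 6.57% the AP-1 letters and 1.65% the CRE letters. The table held 13 windows for 7 of the 10 genes. A second SPRY1 window, at chr4:123398136-123398385, overlapped annotated exons and is not printed, and it had 68.0% GC, 1 ETS match and 2 GC box matches. The other 2 SPRY2 windows held none of these motifs. The matches describe letters only.

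FGF2 was the main detected ligand among the members. It lies at chromosome 4, 122826708 to 122898236 (ENSG00000138685, GRCh38, GENCODE 29), plus strand. FGF2 had 10.6, 3.22, 9.72 and 10.99 CPM in WT Ctr, 23.2, 25.1, 26.2 and 22.3 in WT Sor, and 19.7, 28.1, 22.3 and 24.2 in WNK2- Ctr. It had 13.0, 12.4, 9.98 and 17.0 CPM in WNK2 trans Ctr, 26.9, 31.9, 29.6 and 22.4 in WNK2 trans Sor, and 34.2, 30.1, 31.1 and 37.0 in WNK2- Sor. The 2 isotonic groups of parental cells were lowest and overlapped each other, and all 16 other libraries lay above them. WNK2- Sor, WNK2 trans Sor, WT Sor and WNK2- Ctr overlapped with their neighbours in the order of means. Of its exonic bases, 11.9% are shared with NUDT6 on the opposite strand, and no strand setting of the counting is stated, so reads there cannot be assigned to either gene.

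FGF1, the other ligand, had 0 to 12 counts per library and 124 in all, and it did not pass the filter. ETV4 was listed at 0 counts in all 24 libraries, which allows up to 3 counts per library, for counting error only. SOX9 and CHAD were also at 0 throughout, and whether such zeros come from the annotation used for counting was not tested, so the 0 is only a listed value. It lies at chromosome 17, 43527844 to 43579620, within the span of DHX8 on the opposite strand.

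FGFR1, a receptor for both ligands (ENSG00000077782, chromosome 8, 38400215 to 38468834, minus strand), is the receptor tyrosine kinase of the set. It had 277, 238, 239 and 259 CPM in WT Ctr, 260, 259, 240 and 261 in WT Sor, and 302, 293, 317 and 318 in WNK2 trans Ctr. It had 218, 168, 203 and 201 CPM in WNK2 trans Sor, 173, 166, 158 and 165 in WNK2- Ctr, and 153, 169, 151 and 155 in WNK2- Sor. The WNK2 trans Ctr libraries were highest and both groups of WNK2- cells were lower than every library of WT Ctr, WT Sor and WNK2 trans Ctr. WT Ctr and WT Sor overlapped, as did WNK2 trans Sor with WNK2- Ctr and WNK2- Ctr with WNK2- Sor.

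SPRY1 (ENSG00000164056, chromosome 4, 123396795 to 123403760, plus strand) encodes a Sprouty inhibitor and had the widest fold range of the 8 tested genes. It had 36.4, 39.8, 35.8 and 33.8 CPM in WT Ctr, 73.9, 65.6, 72.8 and 76.6 in WT Sor, and 118, 112, 116 and 120 in WNK2 trans Ctr. It had 21.5, 17.9, 18.4 and 18.4 CPM in WNK2 trans Sor, 1.39, 0.944, 2.58 and 1.36 in WNK2- Ctr, and 0.669, 0.590, 0.684 and 0.611 in WNK2- Sor. No group overlapped its neighbour, and the order ran down from WNK2 trans Ctr through WT Sor, WT Ctr and WNK2 trans Sor to the clone, where the sorbitol libraries were lowest. The fold range and the low end of this order rest in part on the libraries by which SPRY1 was chosen. The WNK2- Sor libraries held 12 to 18 reads each and the WNK2- Ctr libraries 19 to 55, so SPRY1 was low but not absent in the clone.

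**Figure D1:**
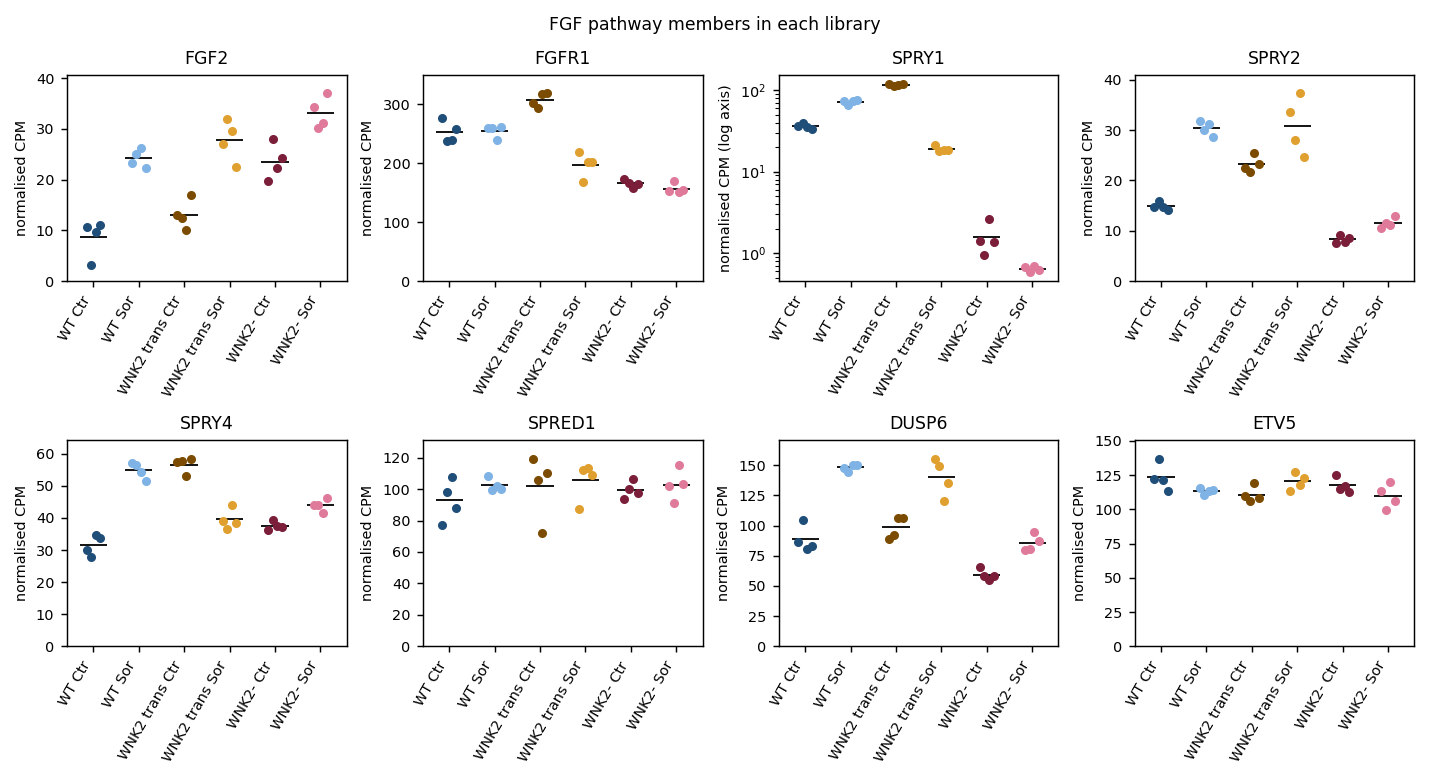
Normalised CPM of the 8 tested genes in each of the 24 libraries (points) with the group mean (line), on a log axis for SPRY1 and a linear axis from 0 for the others. SPRY1 runs from 0.590 to 120 CPM, while SPRED1 and ETV5 overlap across groups.

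SPRY2 (ENSG00000136158, chromosome 13, 80335976 to 80340951, minus strand) had 14.6, 15.9, 14.7 and 14.2 CPM in WT Ctr, 31.8, 29.9, 31.3 and 28.6 in WT Sor, and 22.6, 21.7, 25.4 and 23.2 in WNK2 trans Ctr. It had 33.5, 28.1, 37.3 and 24.7 CPM in WNK2 trans Sor, 7.53, 9.14, 7.84 and 8.53 in WNK2- Ctr, and 10.4, 11.6, 11.1 and 12.9 in WNK2- Sor. Only WNK2 trans Sor and WT Sor overlapped among neighbours in the order of means, and both WNK2- groups were below every parental library.

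SPRY4 (ENSG00000187678, chromosome 5, 142310427 to 142326455, minus strand), the Sprouty gene next in the family, was spread less. It had 30.1, 27.7, 34.8 and 33.7 CPM in WT Ctr, 57.2, 56.7, 54.5 and 51.6 in WT Sor, and 57.4, 57.6, 53.1 and 58.5 in WNK2 trans Ctr. It had 39.2, 36.6, 44.1 and 38.3 CPM in WNK2 trans Sor, 36.3, 39.4, 37.5 and 37.2 in WNK2- Ctr, and 44.1, 44.2, 41.7 and 46.4 in WNK2- Sor. WT Ctr was lowest, and WNK2 trans Ctr and WT Sor were highest and overlapped. WNK2- Sor overlapped WNK2 trans Sor, which overlapped WNK2- Ctr.

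DUSP6 (ENSG00000139318, chromosome 12, 89347232 to 89353271, minus strand) had 86.1, 105, 80.3 and 83.0 CPM in WT Ctr, 148, 144, 151 and 150 in WT Sor, and 89.1, 92.6, 106 and 106 in WNK2 trans Ctr. It had 156, 150, 121 and 136 CPM in WNK2 trans Sor, 65.4, 58.1, 55.2 and 58.4 in WNK2- Ctr, and 79.9, 80.7, 94.4 and 87.0 in WNK2- Sor. The 2 sorbitol groups of parental cells were highest and WNK2- Ctr was lowest, with no overlap with any other group. Of the exonic bases of DUSP6, 40.5% are shared with an antisense gene that held at most 8 counts in any library. As for FGF2, no strand setting of the counting is stated, so this low count does not show that DUSP6 was counted over its full length.

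SPRED1 (chromosome 15, 38252326 to 38357249) and ETV5 (chromosome 3, 186046308 to 186110318) encode a further RAS to ERK inhibitor and an ETS factor. Group means of SPRED1 ran from 92.8 ± 13.2 CPM in WT Ctr to 106 ± 12.4 in WNK2 trans Sor, and those of ETV5 from 110 ± 8.52 in WNK2- Sor to 123 ± 9.88 in WT Ctr. Neighbouring groups overlapped throughout for both genes. Per exonic length in WT Ctr, the level as CPM per kilobase of exons (RPKM) was 21.3 for ETV5, 19.1 for DUSP6, 18.3 for FGFR1, 11.2 for SPRED1, 9.19 for SPRY1, 4.89 for SPRY2, 4.81 for SPRY4 and 1.28 for FGF2. In WNK2- Ctr SPRY1 was lowest of these 8, at 0.396 RPKM.

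In isotonic media 4 members were lower and 2 higher in WNK2- than in WT cells. In WNK2- Ctr against WT Ctr, 6 of 8 tested genes passed an edgeR adjusted p of 0.05, where 42.1% of the 16600 genes tested did. The median log2 fold change was -0.33 over the 8 genes and 0.0020 over all genes. SPRY1 fell 23.0-fold (log2 fold change -4.52, standard error 0.16, edgeR adjusted p = 1.92e-16). SPRY2 fell by 0.85 on the log2 scale (standard error 0.12, edgeR adjusted p = 2.43e-06). The receptor FGFR1 fell by 0.61 (standard error 0.08, edgeR adjusted p = 7.05e-07) and DUSP6 fell by 0.58 (standard error 0.10, edgeR adjusted p = 3.15e-05). FGF2 rose 2.73-fold (log2 fold change 1.45, standard error 0.22, edgeR adjusted p = 1.18e-05). SPRY4 rose by 0.25 (standard error 0.08, edgeR adjusted p = 0.0174). It no longer passed without WT Ctr replicate 2 (adjusted p = 0.0795) or WNK2- Ctr replicate 2 (0.0568), in a fit of the compared groups alone (0.0869) and with no filter on low counts (0.0786). SPRED1 and ETV5 had log2 fold changes of 0.10 (95% interval -0.15 to 0.34) and -0.07 (-0.22 to 0.07). In the same comparison 5 of 10 tested chondrocyte markers and 4 of 5 tested fibroblast markers were lower and none was higher, and their part in these results was not tested. Within 2 Mb of SPRY1, 15 other genes were tested and none fell as far as SPRY1. Of these 15 genes 7 were lower and 2 higher, with a median log2 fold change of -0.29 and a lowest value of -1.92. The SPRY1 call held in all 31 alternatives.

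Against WNK2 trans Ctr, the other isotonic group of parental cells, the WNK2- Ctr libraries again differed in 6 of 8 genes, where 47.7% of all genes passed. SPRY1 was 73.6-fold lower (log2 fold change -6.20, standard error 0.17, edgeR adjusted p = 1.55e-19). SPRY2 (-1.49), FGFR1 (-0.89), DUSP6 (-0.73) and SPRY4 (-0.59) were also lower, with edgeR adjusted p of 9.82e-11, 7.99e-10, 8.25e-07 and 1.74e-06. FGF2 was higher by 0.85 (standard error 0.22, edgeR adjusted p = 0.00225). Among the members called in both comparisons, SPRY4 was the one whose direction turned with the comparator. Both comparisons share the WNK2- Ctr libraries, as those named below share WT Ctr or WT Sor.

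**Figure D2:**
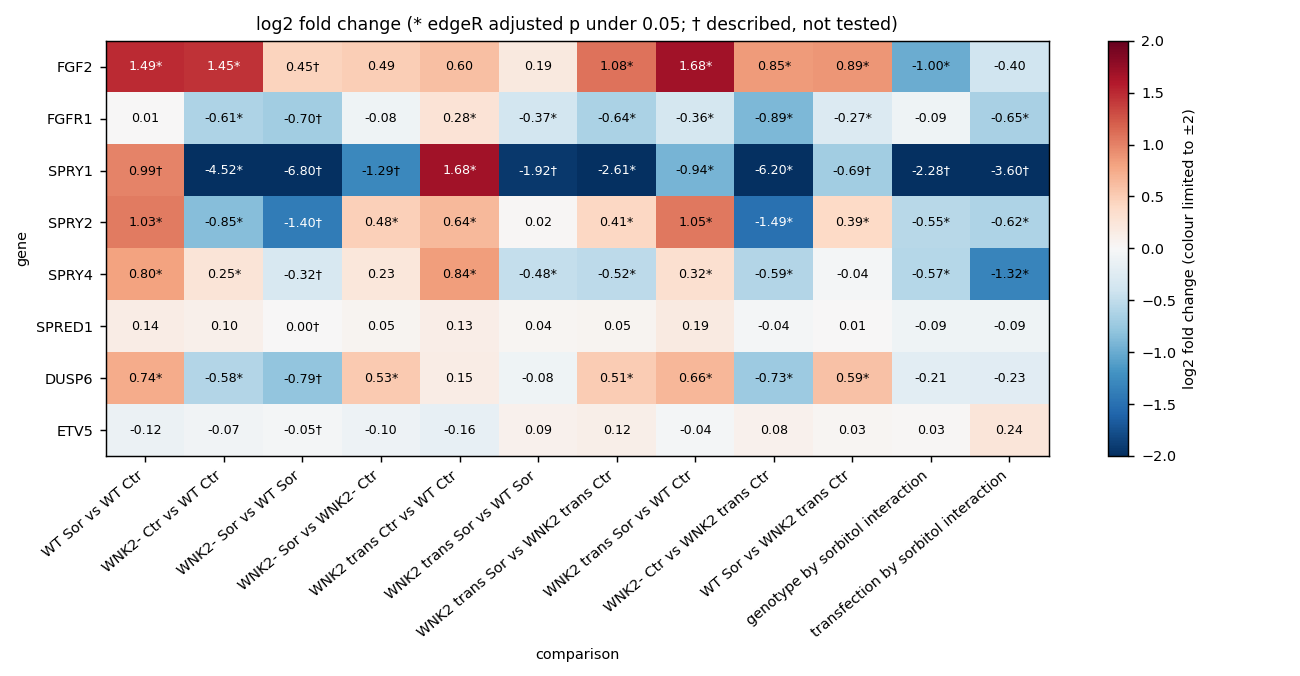
Log2 fold changes of the 8 tested genes (vertical axis) in 10 pairwise comparisons and 2 interactions (horizontal axis), with an asterisk where the edgeR adjusted p was under 0.05 and a dagger where no test is given. SPRY1 runs from -6.80 to 1.68, and SPRED1 and ETV5 carry no asterisk.

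The fall of SPRY1 that chose it stood between WNK2- Sor and WT Sor. It was -6.80 on the log2 scale (standard error 0.18), from 72.2 ± 4.69 to 0.639 ± 0.0451 CPM. In the same contrast the values of SPRY2, DUSP6, FGFR1 and SPRY4 were -1.40, -0.79, -0.70 and -0.32, and that of FGF2 was 0.45. SPRED1 and ETV5 had 0.0041 and -0.05. In these groups the summed fibroblast markers were 925 to 1119 CPM in WNK2- Sor and 3535 to 3780 CPM in WT Sor, and their part in the result was not tested.

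FGF2 and 3 feedback genes were higher under sorbitol in WT cells. In WT Sor against WT Ctr, 4 of 7 tested genes passed, all higher, where 24.1% of all genes passed. FGF2 rose 2.81-fold (log2 fold change 1.49, standard error 0.23, edgeR adjusted p = 3.82e-05). SPRY2 rose by 1.03 (standard error 0.11, edgeR adjusted p = 4.45e-07), SPRY4 by 0.80 (standard error 0.08, edgeR adjusted p = 2.2e-07) and DUSP6 by 0.74 (standard error 0.10, edgeR adjusted p = 5.39e-06). SPRY1, described only, was 0.99 higher. FGFR1 had a log2 fold change of 0.01 (95% interval -0.14 to 0.16). These 4 calls held in all 31 alternatives run for each.

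Against the WNK2 trans Ctr libraries, with 13.7 ± 2.87 CPM of WNK2 beside 16.5 ± 1.04 in WT Sor, WT Sor differed in 4 of 7 genes, where 15.1% of all genes passed. FGF2 was higher by 0.89 (edgeR adjusted p = 0.00602) and DUSP6 by 0.59 (edgeR adjusted p = 0.000103). SPRY2 was higher by 0.39 (edgeR adjusted p = 0.0165), a call lost without WT Sor replicate 1 (0.05003) or WNK2 trans Ctr replicate 2 (0.0562). FGFR1 was lower, at -0.27 (edgeR adjusted p = 0.0178), a call lost without WT Sor replicate 3 (0.0792), WNK2 trans Ctr replicate 3 (0.0569) or replicate 4 (0.0556), and with no filter on low counts (0.114). SPRY4 had -0.04 (95% interval -0.20 to 0.12). SPRY1, described only, was lower in WT Sor, at -0.69 (72.2 against 117 CPM), so its direction under sorbitol turned with the comparator.

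In the clone, DUSP6 and SPRY2 were higher under sorbitol. In WNK2- Sor against WNK2- Ctr, 2 of 7 tested genes passed, where 14.9% of all genes passed. DUSP6 rose by 0.53 (standard error 0.10, edgeR adjusted p = 0.000358) and SPRY2 by 0.48 (standard error 0.12, edgeR adjusted p = 0.00528). FGF2 had 0.49 (standard error 0.21, edgeR adjusted p = 0.125) and SPRY4 0.23 (standard error 0.08, edgeR adjusted p = 0.0615). In a fit of these 2 groups alone both passed, with adjusted p of 0.00183 and 0.0248, and without WT Ctr replicate 2 they had 0.0124 and 0.0460. SPRY4 also passed with DESeq2 (0.0184), upper-quartile factors (0.0210) and at least 10 counts in every library (0.0224). SPRY1, described only, had -1.29, and -0.95 without WNK2- Ctr replicate 3, which held 55 reads.

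The responses were then compared directly, with the libraries as labelled. The genotype by sorbitol interaction is the sorbitol change in WNK2- cells minus that in WT cells, and 3 of 7 tested genes passed, all negative, where 8.65% of all genes passed. SPRY4 had -0.57 (standard error 0.12, edgeR adjusted p = 0.0027), with changes of 0.23 in WNK2- and 0.80 in WT cells. FGF2 had -0.996 (standard error 0.31, edgeR adjusted p = 0.0425), but lost the call in 12 of the 24 fits that left out a library, including each WT Sor and each WNK2- Sor library (0.0511 to 0.0960). SPRY2 had -0.55 (standard error 0.16, edgeR adjusted p = 0.0329) and lost the call in 7 of those 24 fits (WT Sor replicates 1, 2 and 3, WNK2- Ctr replicates 2 and 4, WNK2- Sor replicates 1 and 3) and with no filter on low counts (0.0575). DUSP6, which rose in both, had an interaction of -0.21 (95% interval -0.48 to 0.05, edgeR adjusted p = 0.362). These values rest on the libraries labelled WT Ctr. With WNK2 trans Ctr in their place, an alternative chosen after seeing the data, 0 of 7 genes passed the edgeR test (1 at an unadjusted p under 0.05), where 3.39% of all genes did. The sign turned for SPRY4 (0.27, edgeR adjusted p = 0.267) and SPRY2 (0.09, edgeR adjusted p = 0.904), and FGF2 had -0.40 (edgeR adjusted p = 0.648). SPRY1, described only, had -2.28 with WT Ctr and -0.60 with WNK2 trans Ctr. The difference in response between WNK2- and WT cells thus depended on which isotonic parental group was used.

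**Figure D3:**
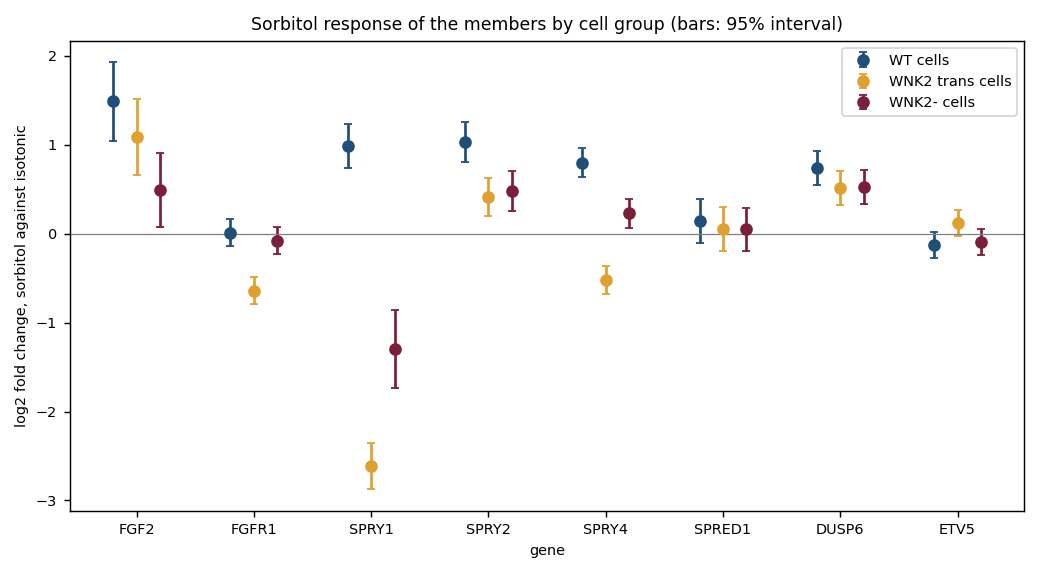
Log2 fold change of sorbitol against isotonic media for the 8 tested genes in WT, WNK2 trans and WNK2- cells, with 95% intervals from the edgeR standard error. SPRY1 runs from 0.99 in WT to -2.61 in WNK2 trans cells, SPRY4 from 0.80 to -0.52, and DUSP6 is above 0 in all 3.

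The WNK2 trans Ctr libraries had more of the receptor and the Sprouty genes than the WT Ctr libraries. In this comparison 4 of 8 genes passed, all higher, where 12.5% of all genes passed. SPRY1 was 3.20-fold higher (log2 fold change 1.68, standard error 0.13, edgeR adjusted p = 9.09e-10). SPRY4 was higher by 0.84 (edgeR adjusted p = 9.23e-08) and SPRY2 by 0.64 (edgeR adjusted p = 0.000284). FGFR1 was higher by 0.28 (edgeR adjusted p = 0.017), a call lost without WT Ctr replicate 2 (0.0539), in a fit of both groups alone (0.188) and with no filter (0.0665). FGF2 had 0.60 (edgeR adjusted p = 0.0868), and passed with DESeq2 (0.0458). The summed fibroblast markers were 5254 to 6436 CPM in WNK2 trans Ctr and 2708 to 3873 in WT Ctr, with 3 of 5 tested markers higher, and their part was not tested.

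Sorbitol in WNK2 trans cells gave changes in both directions. In WNK2 trans Sor against WNK2 trans Ctr, 6 of 8 genes passed, where 48% of all genes passed. SPRY1 fell 6.12-fold (log2 fold change -2.61, standard error 0.13, edgeR adjusted p = 3.6e-14). FGFR1 fell by 0.64 (edgeR adjusted p = 2.69e-07) and SPRY4 fell by 0.52 (edgeR adjusted p = 1.32e-05). FGF2 rose by 1.08 (edgeR adjusted p = 0.000229), DUSP6 by 0.51 (edgeR adjusted p = 0.000113) and SPRY2 by 0.41 (edgeR adjusted p = 0.00343), though SPRY2 overlapped between the groups. WNK2 itself was higher in WNK2 trans Sor, as given above, and sorbitol and the level of WNK2 cannot be told apart here. All 10 tested chondrocyte markers also passed, 8 lower and 2 higher, and 4 of 5 tested fibroblast markers were lower, and their part was not tested.

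Against untreated WT Ctr, 6 of 8 genes passed in WNK2 trans Sor, where 39.2% of all genes passed. FGF2 was 3.21-fold higher (log2 fold change 1.68, standard error 0.23, edgeR adjusted p = 2.2e-06). SPRY2 (1.05), DUSP6 (0.66) and SPRY4 (0.32) were higher, with edgeR adjusted p of 7.94e-08, 7.31e-06 and 0.00339. SPRY1 (-0.94) and FGFR1 (-0.36) were lower, with edgeR adjusted p of 3.38e-06 and 0.00073. In a fit of these 2 groups alone SPRY4 (0.0908) and FGFR1 (0.0744) lost their calls. Of 10 tested chondrocyte markers 6 were lower and 1 higher, and their part was not tested.

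Against WT Sor, 2 of 7 tested genes passed in WNK2 trans Sor, both lower, where 31.7% of all genes passed. SPRY4 had -0.48 (edgeR adjusted p = 8.79e-05) and FGFR1 -0.37 (edgeR adjusted p = 0.000779). SPRY1, described only, was lower, at -1.92. FGF2 (0.19, 95% interval -0.22 to 0.61), SPRY2 (0.02, -0.19 to 0.24) and DUSP6 (-0.08, -0.27 to 0.11) had intervals that include 0. Of 10 tested chondrocyte markers 8 were lower and 1 higher, and 3 of 5 tested fibroblast markers were lower, and their part was not tested.

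The transfection by sorbitol interaction is the sorbitol change in WNK2 trans cells minus that in WT cells. In it 3 of 7 tested genes passed, all negative, where 35.5% of all genes passed. SPRY4 had -1.32 (standard error 0.12, edgeR adjusted p = 3.39e-09), from a rise of 0.80 in WT to -0.52 in WNK2 trans cells. FGFR1 had -0.65 (edgeR adjusted p = 5.31e-05) and SPRY2 -0.62 (edgeR adjusted p = 0.00345). FGF2 had -0.40 (95% interval -1.01 to 0.20) and DUSP6 -0.23 (-0.50 to 0.04), though DUSP6 passed without WT Ctr replicate 2 (edgeR adjusted p = 0.0474). ETV5 was positive, at 0.24 (95% interval 0.04 to 0.45, edgeR adjusted p = 0.0764). It passed with DESeq2 (0.0311), upper-quartile factors (0.0431), at least 10 counts in every library (0.0494) and without WNK2 trans Ctr replicate 3 (0.0462). Both groups whose labels WNK2 goes against enter these values. With WT Ctr and WNK2 trans Ctr exchanged, an alternative chosen after seeing the data, 1 of 7 genes passed, where 5.46% of all genes did. SPRY2 then had 0.66 (edgeR adjusted p = 0.0125) and SPRY4 0.37 (edgeR adjusted p = 0.0654), both with the sign turned, and FGFR1 had -0.09 (edgeR adjusted p = 0.732). SPRY1, described only, had -3.60 as labelled and -0.25 after the exchange.

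Among the parental groups SPRY1 was highest where WNK2 was lowest, in WNK2 trans Ctr (117 ± 3.31 against 13.7 ± 2.87 CPM), and lowest among them where WNK2 was highest, in WNK2 trans Sor (19.1 ± 1.64 against 165 ± 38.5 CPM). In both WNK2- groups WNK2 (22.1 ± 0.755 and 19.6 ± 2.51 CPM) was near the low parental groups, and SPRY1 was at its lowest. Since WNK2 was counted as a whole gene, these values do not show whether exon 2 is present.

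**Figure D4:**
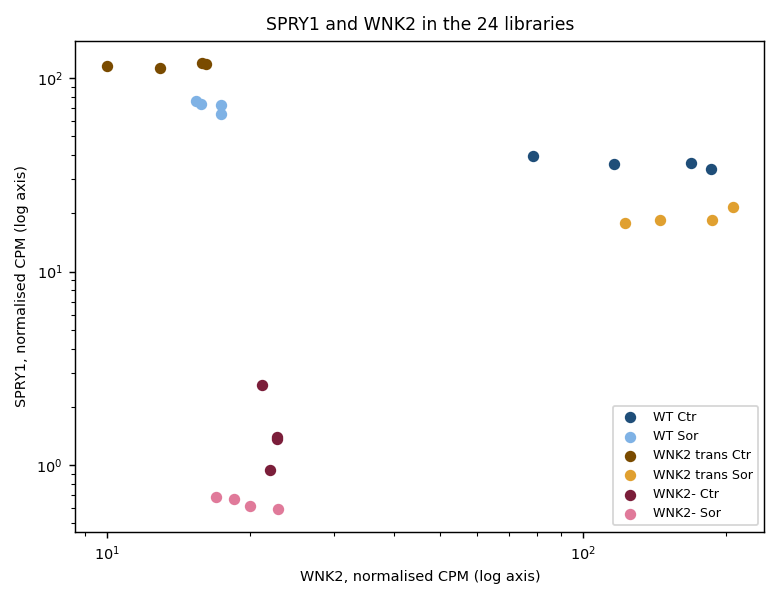
SPRY1 against WNK2, both in normalised CPM on log axes, for the 24 libraries coloured by group. The parental groups run from high SPRY1 and low WNK2 to low SPRY1 and high WNK2, and the 8 WNK2- libraries lie apart at 0.590 to 2.58 CPM of SPRY1.

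Across the 6 group means of log2 CPM, the genes most like SPRY1 were CDK19, PTPRO, HAS2, CDK5R1 and TRIM38, with Pearson correlations of 0.996 to 0.998 among 9646 genes compared. FGFR1 had 0.956 with SPRY1, and SPRY2 had 0.956 with DUSP6. The 6 points share groups and libraries, and a high value over so few points is a description only.

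Around the members, the rest of the pathway was read in lists of 67 further genes, of which 50 were tested. In WNK2- Ctr against WT Ctr 24 of the 50 passed, 12 higher and 12 lower, where 42.1% of all genes did. Of 7 tested genes in the list of FGF ligands 4 were higher and none lower, with a list median of 1.21, the value of FGF12. FGF12, FGF13 and FGF14 of this list are intracellular and not secreted ligands. FGF13, an intracellular FGF homologue, was higher by 4.67 (3.10 against 0.122 CPM, edgeR adjusted p = 5.21e-06), FGF5 by 1.31 (13.3 against 5.34 CPM, edgeR adjusted p = 1.79e-05) and FGF12 by 1.21 (4.38 against 1.88 CPM, edgeR adjusted p = 0.00157). Of 5 tested receptors and co-receptors 3 were lower and none higher. FGFR2 had -2.04 (edgeR adjusted p = 2.08e-06), FGFR4 -1.59 (edgeR adjusted p = 4.47e-07) and FGFR3 -0.97 (edgeR adjusted p = 0.000236), so that FGFR1 and its 3 kinase paralogues were all lower.

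Further down the pathway the directions were mixed. The counts in WNK2- Ctr against WT Ctr stand beside the 42.1% of all genes that passed there. Of 18 genes of the relay from receptor to ERK, 2 were higher and 4 lower in WNK2- Ctr, among them the adaptors GAB1 (-0.79) and FRS3 (-0.63) and the ERK gene MAPK3 (-0.57), with edgeR adjusted p of 0.000955, 0.018 and 0.00272. Of 11 further inhibitors 2 were higher and 1 lower. IL17RD, a membrane inhibitor of FGF receptors, had -1.20 (edgeR adjusted p = 6.57e-08) and the phosphatase gene DUSP7 0.75 (edgeR adjusted p = 3.48e-06). SPRY3, the remaining Sprouty gene, had 3.18 ± 0.588 CPM in WNK2- Ctr and 2.52 ± 0.933 in WT Ctr, a log2 fold change of 0.33 (edgeR adjusted p = 0.37). Of 8 tested ERK-responsive targets 4 were higher and 3 lower. EGR1, an immediate early gene, had -2.39 (edgeR adjusted p = 3.44e-09), while FOSL1, an AP-1 subunit, had 1.65 (edgeR adjusted p = 5.63e-07) and the cyclin gene CCND1 had 1.56 (edgeR adjusted p = 2.23e-10). ETV1, the third member of the ETV group, had -0.61 (edgeR adjusted p = 0.000326). Against WNK2 trans Ctr 24 of the 50 further genes passed, 10 higher and 14 lower, where 47.7% of all genes did. Of the inhibitors 1 was then higher and 4 lower, and of the FGF ligands 3 were higher and 1 lower. Receptors and co-receptors had 1 higher and 3 lower, the relay 2 higher and 4 lower, and the targets 3 higher and 2 lower. The balance among the inhibitors thus turned with the comparator.

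**Figure D5:**
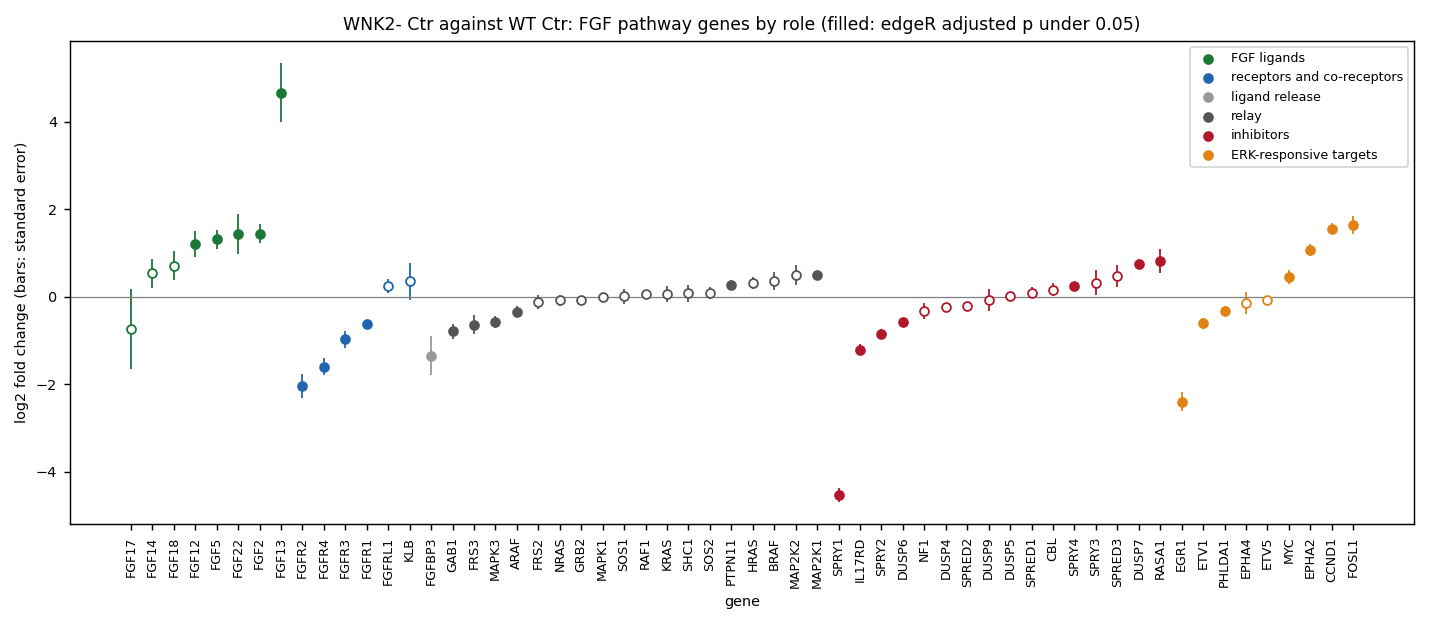
Log2 fold change in WNK2- Ctr against WT Ctr, with standard error bars, for the tested genes of the pathway in order of role; filled points passed an edgeR adjusted p of 0.05. The 4 FGF receptor kinases lie below 0 and SPRY1 is the lowest point at -4.52.

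Under sorbitol in WT cells 8 of the 50 further genes passed, 7 higher, where 24.1% of all genes passed. The higher genes included SPRED3 (1.30, edgeR adjusted p = 0.000525), DUSP4 (0.68, edgeR adjusted p = 6.52e-05) and SPRED2 (0.35, edgeR adjusted p = 0.00615) among the inhibitors. They also included EGR1 (0.92, edgeR adjusted p = 0.00213), EPHA2 (0.69, edgeR adjusted p = 0.0005), FGFR4 (0.55, edgeR adjusted p = 0.0326) and FGF14 (1.004, edgeR adjusted p = 0.0234). In WT Sor against WNK2 trans Ctr 8 of the 50 passed, 7 higher, where 15.1% of all genes passed. EPHA2 (1.12, edgeR adjusted p = 1.56e-06), DUSP4 (0.37, edgeR adjusted p = 0.0205) and FGF14 (0.99, edgeR adjusted p = 0.0338) were higher there too. FGFR4 (36.7 CPM in WT Sor, 46.9 in WNK2 trans Ctr), SPRED2 (74.6 and 76.6 CPM), EGR1 (189 and 138 CPM) and SPRED3 did not pass there. In WNK2- cells EGR1 fell under sorbitol (-1.61, edgeR adjusted p = 1.8e-05). There FGF5 (1.43, edgeR adjusted p = 8.11e-06), DUSP4 (0.89, edgeR adjusted p = 1.41e-06), DUSP5 (0.61, edgeR adjusted p = 3.54e-05) and SPRED3 (0.76, edgeR adjusted p = 0.0316) rose. In WNK2 trans Sor against WNK2 trans Ctr FGF5 rose by 3.27 (edgeR adjusted p = 2.64e-11), and FGFR3 (-2.48, edgeR adjusted p = 2.65e-10) and FGFR4 (-2.10, edgeR adjusted p = 3.00e-09) fell. CCND1 rose there by 2.47 (edgeR adjusted p = 5.81e-14), EPHA2 by 1.95 (edgeR adjusted p = 1.82e-11) and FOSL1 by 1.71 (edgeR adjusted p = 2.5e-07).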

How the data were processed

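RNA-seq libraries of T/C-28a2 cells, 4 in each of 6 groups, were grouped by their labels. The authors deposited raw read counts per Ensembl gene identifier, made from poly(A)-enriched libraries and without normalization; per the labels' processing notes the tools were FastQC 0.11.9, HISAT2 2.2.1, HTSeq 2.0.2 and DESeq2 1.38.3 with GRCh38. The strand setting and annotation release are not given in the sources used here. Of 62703 identifiers 62625 had a symbol and 78 did not, 58279 were in GENCODE 29, and 0 rows named no gene.

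R 4.3.3 and edgeR 4.0.16 were used: filterByExpr (minimum count 10, minimum total 15), TMM factors, 1 quasi-likelihood fit of 6 group means over 24 libraries, and Benjamini-Hochberg adjustment over the 16600 genes tested (threshold 0.05). Standard errors are the log2 fold change over the root of F. No libraries agreed within sampling noise. The test was checked on simulated counts. RPKM used exon lengths of GENCODE 29.

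The members, gene lists and named-gene rule were chosen with earlier results of these data known, and the study names FGF2 for sorbitol. Beside the members, the text names from each list and comparison at most 3 called genes with the largest change and no overlap between groups, paralogues of members, and the 5 genes most like SPRY1 (mean log2 CPM of at least 3). Alternatives were DESeq2 1.42.0, RLE and upper-quartile factors, no filter, at least 10 counts in every library, the compared groups alone, a replicate block, each library left out, and, chosen after seeing the data, the interactions with WT Ctr and WNK2 trans Ctr exchanged.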

Additional observations from a re-analysis of the deposited data

Results flagged for a closer look

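In 4 of 48 groups of 4 libraries, 1 library lay far from the others by Dixon's test, and chance alone does this in about 1 of 20 groups. The gap to the nearest library, as a share of the group's range, was 0.837 for FGF2 in WT Ctr replicate 2 (3.22 CPM, the low end), 0.917 for FGFR1 in WT Sor replicate 3 (240 CPM), 0.863 for SPRY1 in WNK2 trans Sor replicate 1 (21.5 CPM) and 0.835 for SPRED1 in WNK2 trans Sor replicate 1 (87.2 CPM).

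The sorbitol change differed between cell groups by the edgeR test of the interaction for several members. Between WNK2- and WT cells it differed by -1.0 for FGF2 (edgeR adjusted p = 0.0425), -0.55 for SPRY2 (0.0329) and -0.57 for SPRY4 (0.0027). Between WNK2 trans and WT cells it differed by -0.65 for FGFR1 (edgeR adjusted p = 5.31e-05), -0.62 for SPRY2 (0.00345) and -1.32 for SPRY4 (3.39e-09). The WNK2 counts go against the labels of WT Ctr and WNK2 trans Ctr, which enter these values. With WNK2 trans Ctr in place of WT Ctr the first difference was -0.40 for FGF2, 0.09 for SPRY2 and 0.27 for SPRY4. With the 2 groups exchanged the second was -0.09 for FGFR1, 0.66 for SPRY2 and 0.37 for SPRY4.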

How the results depend on the processing

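Of 2992 log2 fold changes recomputed under the alternatives, 2883 kept their direction and their side of the threshold, 52 reversed, 38 lost a call, 16 gained one and 3 moved. The 2 interactions depended most on the choice of isotonic parental group. With WNK2 trans Ctr in place of WT Ctr, the genotype by sorbitol interaction was 0.1931 for FGFR1, 0.0865 for SPRY2, 0.2726 for SPRY4, 0.0394 for SPRED1 and -0.1315 for ETV5, all reversed, and called 0 members in place of 3. With both groups exchanged, the transfection by sorbitol interaction was 0.7941 for FGF2, 0.6627 for SPRY2, 0.3664 for SPRY4, 0.1743 for SPRED1, 0.0741 for DUSP6 and -0.0703 for ETV5, all reversed, and called 1 member in place of 3. Over all genes these fits called 562 in place of 1436 and 906 in place of 5897. This alternative was chosen after seeing the data. Under the other alternatives the reversals were of values near 0 that passed no test. SPRED1 in WNK2- Sor against WT Sor was -0.0334 with no filter and -0.0065 with the compared groups alone. ETV5 in WNK2 trans Sor against WT Ctr was 0.0281 with upper-quartile factors and 0.0159 with at least 10 counts in every library, and in the genotype by sorbitol interaction -0.0245 with no filter. Leaving out 1 library at a time gave ranges of -0.0145 to 0.0604 for FGFR1 in WT Sor against WT Ctr, -0.0878 to 0.1102 for SPRY2 in WNK2 trans Sor against WT Sor, -0.0739 to 0.0121 for ETV5 in WNK2 trans Sor against WT Ctr and -0.0398 to 0.067 for ETV5 in the genotype by sorbitol interaction. For SPRED1 the ranges were -0.0573 to 0.0589 in WNK2- Sor against WT Sor, -0.0108 to 0.1054 in WNK2- Sor against WNK2- Ctr, -0.0033 to 0.1049 in WNK2 trans Sor against WT Sor, -0.0734 to 0.1297 in WNK2 trans Sor against WNK2 trans Ctr, -0.1703 to 0.0449 in WNK2- Ctr against WNK2 trans Ctr and -0.1139 to 0.0998 in WT Sor against WNK2 trans Ctr. The number of members called in WNK2- Sor against WNK2- Ctr was 4 with the compared groups alone and 2 to 4 without 1 library, and in the genotype by sorbitol interaction 1 to 3 without 1 library. The cause was not tested.

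Genes called over the whole table in a fit of the compared groups alone were 4824 against 2473 in WNK2- Sor against WNK2- Ctr, 747 against 2082 in WNK2 trans Ctr against WT Ctr and 3018 against 6509 in WNK2 trans Sor against WT Ctr, with fewer libraries and genes in each such fit. In the genotype by sorbitol interaction 1436 genes fell to 944 without WNK2- Ctr replicate 2 and to 849 without WNK2- Sor replicate 3. Same-numbered libraries had correlations of -0.287 to 0.458 of their deviations from group means. These were over 0.1 in 10 of 60 pairs and in 0 of 15 group pairs throughout, so the numbers did not pair any 2 groups throughout. The highest was between replicate 1 of WT Ctr and of WNK2 trans Sor, and whether some libraries shared a batch was not tested. With a replicate block FGF2 in the genotype by sorbitol interaction was -1.02 (edgeR adjusted p = 0.0547), and no other call changed. SPRY1 rests on 12 to 55 reads per WNK2- library, which limits its precision there.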
